A study of Homo sapiens with 6 samples.

Results

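A set of 10 genes of the cytoskeleton and of focal adhesions were followed in ribosome footprints of WPMY-1 cells, an immortal myofibroblast-like line from human prostate stroma. They were the 10 Ensembl IDs that define the set, for ACTB, ACTG1, VIM, TPM3, TPM4, FLNA, ACTN1, ACTN4, VCL and TLN1, out of 62492 features in the deposited count table, and all 10 passed the filter that left 11653 features for testing. A group of 3 libraries came from cells with the short hairpin RNA named sh61A, labelled TRMT61A knockdown, and 3 from cells with a control hairpin, labelled TRMT61A wildtype. TRMT61A is the catalytic subunit of the enzyme that methylates adenosine in tRNA to 1-methyladenosine. The labels name no further treatment, and nothing in them ties a library to its own culture or clone. All p-values here therefore measure spread among these 6 libraries, part or all of which could be technical.

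Actin polymerises into filaments that tropomyosins coat and that alpha-actinins and filamin crosslink. At focal adhesions, talin joins integrins to these filaments, and vinculin binds talin and actin to strengthen the link. Vimentin forms the intermediate filaments of mesenchymal cells. Stromal myofibroblasts rely on this system to contract and to pull on their matrix. Several of these genes are abundant in most cells and serve as loading or expression standards.

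Of the 10 genes, 1 rose and 1 fell with the TRMT61A hairpin. TPM4, a non-muscle tropomyosin, rose 3.25-fold, and ACTG1, cytoplasmic gamma-actin, fell to 0.416 of the control level. The other 8 did not pass the test, which was edgeR's quasi-likelihood test with Benjamini-Hochberg adjustment over all features and a threshold of 0.05. Over all features tested, 3.12% passed the same threshold. The median log2 fold change of the 10 genes was -0.11, against -0.0047 over all features tested. In TMM-scaled CPM, explained below, the groups did not overlap in 5 of the 10 genes and in 24.8% of all features tested. Of these 5 genes, TPM3 had overlapping groups when libraries were scaled by total count only.

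For the called genes ACTG1 and TPM4, and for FLNA and ACTN1, a promoter window of RefSeq (GRCh38.p14) held a CArG box, the 10-base element bound by serum response factor, a regulator of many actin cytoskeleton genes. The stretches below are shown because they hold the only such boxes among the 16 windows found for 9 of the 10 genes, ACTB being the gene without one in the table. Each is 100 bases long and printed 5′ to 3′ on the gene's strand, with the box in capitals. The ACTG1 stretch lies at chr17:81512839-81512938 on the minus strand, the TPM4 stretch at chr19:16067320-16067419 on the plus strand, the FLNA stretch at chrX:154374674-154374773 on the minus strand and the ACTN1 stretch at chr14:68977683-68977782 on the minus strand.
ACTG1: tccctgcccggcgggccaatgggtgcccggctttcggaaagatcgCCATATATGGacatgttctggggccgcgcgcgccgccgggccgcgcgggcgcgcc
TPM4: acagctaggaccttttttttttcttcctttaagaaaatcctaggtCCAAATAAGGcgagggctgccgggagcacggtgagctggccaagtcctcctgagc
FLNA: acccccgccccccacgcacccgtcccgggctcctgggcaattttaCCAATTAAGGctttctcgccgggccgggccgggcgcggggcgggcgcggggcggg
ACTN1: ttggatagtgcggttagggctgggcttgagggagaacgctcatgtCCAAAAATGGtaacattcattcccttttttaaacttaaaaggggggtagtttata

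The windows run from 250 bases before to 50 bases after an annotated start. The box begins 94 bases before the start in ACTG1 and in FLNA, 173 bases before it in TPM4 and 171 bases before it in ACTN1. In TPM4 it is in 1 of 3 annotated windows, and in ACTN1 in 1 of 4. Of all 35116 windows in the table, 454 (1.29%) hold such a box. Counted by gene, 438 of 27305 (1.6%) have a window with a box. The search pattern is symmetric, so 1 search covers both strands. Of the 4 genes with a box, footprints of ACTG1 fell, those of TPM4 rose and those of FLNA and ACTN1 did not pass the test. A match describes letters in a window, and footprint counts do not measure promoter activity.

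Total counts ran from 12704354 to 17752247 in the TRMT61A hairpin libraries and from 6771455 to 8008896 in the control libraries. The 10 genes together held 35919 to 46074 counts in TRMT61A hairpin libraries and 25041 to 39998 in control libraries. Single values ran from 77 counts, for TPM4 in control library 2 (exact Poisson 95% interval 60.8 to 96.2, which covers counting error only), to 16024 counts. Levels below are CPM, a count relative to the library's total, scaled by TMM, which corrects for composition. They are not per length, so a level is compared across libraries for 1 gene and not between genes. A footprint count reflects both the amount of an mRNA and how densely ribosomes sit on it, and here the 2 cannot be told apart. It also cannot tell a change in every cell from a change in the mix of cells.

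**Figure D1:**
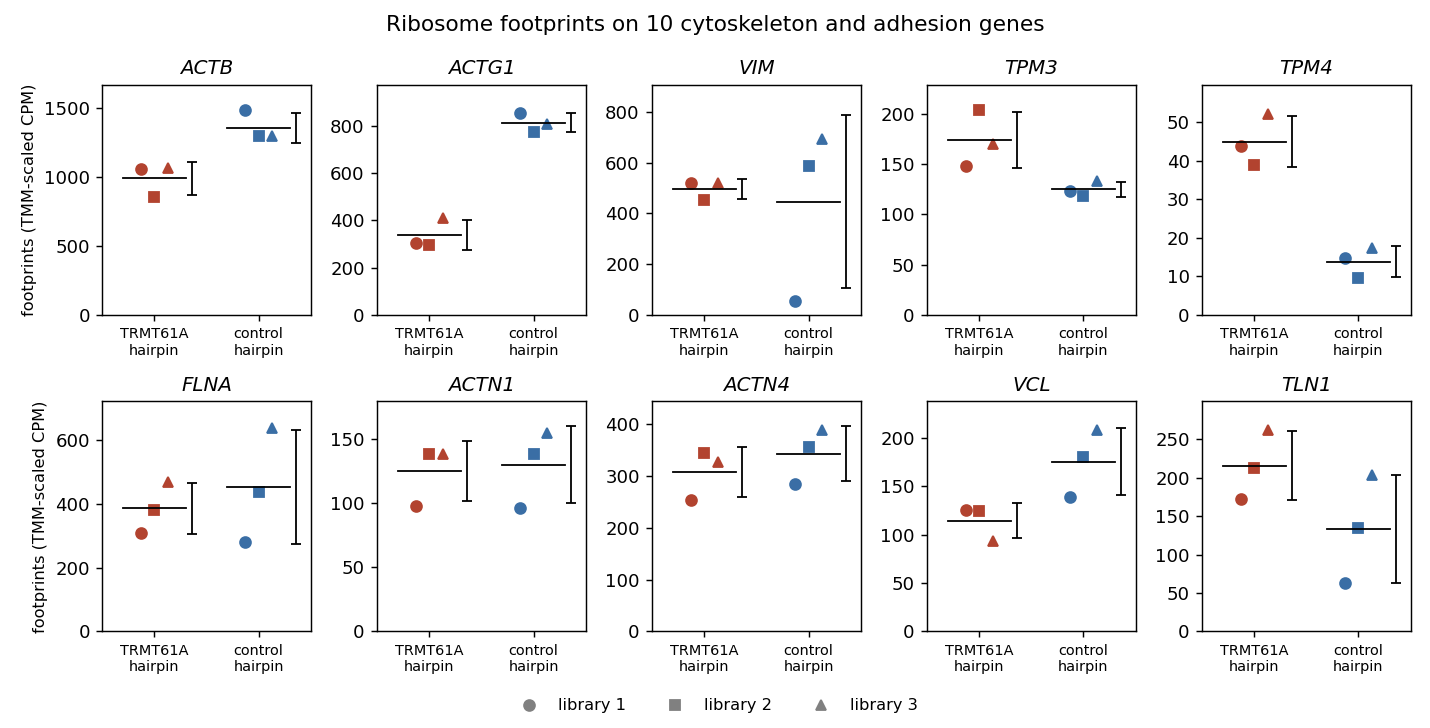
Ribosome footprints on each gene, in TMM-scaled CPM on a linear axis from 0, with 1 point per library, the group mean as a line and the SD as a bar (n = 3 per group). ACTG1 and TPM4 have well separated groups, and VIM has 1 control library at 56.4 CPM far below the other 5 libraries.

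Of the actins, gamma-actin passed the test and beta-actin did not. ACTG1 (ENSG00000184009) had 304, 298 and 411 CPM in TRMT61A hairpin libraries 1 to 3, against 855, 775 and 808 CPM in control libraries 1 to 3. Every TRMT61A hairpin library lay below every control library, and the highest of the first group, library 3, was still below the lowest control. The means were 338 ± 63.9 CPM with the TRMT61A hairpin and 813 ± 40.2 CPM in control (SD, n = 3 each). Its log2 fold change of -1.27 ± 0.23 (SE) passed at an adjusted p of 0.0140 in edgeR. That size changed little when a library was left out, from -1.43 to -1.18, but the call was lost without TRMT61A hairpin library 1 (adjusted p = 0.0560 in edgeR) or 2 (0.0794) and without control library 2 (0.0658) or 3 (0.0584).

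ACTB (ENSG00000075624), cytoplasmic beta-actin, had 1054, 850 and 1063 CPM with the TRMT61A hairpin and 1481, 1294 and 1291 CPM in control. The groups did not overlap here either, but the distance was smaller relative to the spread. Its difference of -0.45 ± 0.22 (SE) on the log2 scale did not pass (adjusted p = 0.336 in edgeR), and it was not called under any of its 14 alternatives. Both actins are nearly identical proteins encoded by separate genes, and the RefSeq gene table holds 14 entries named as ACTB pseudogenes and 21 named as ACTG1 pseudogenes. The labels do not state how reads matching several such copies were counted, so the division of footprints between these IDs is uncertain.

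The ratio of both actins within a library does not depend on scaling between libraries. It was 3.46, 2.86 and 2.58 ACTB counts per ACTG1 count in TRMT61A hairpin libraries 1 to 3, and 1.73, 1.67 and 1.60 in control libraries 1 to 3. The control ratios lay close together and every TRMT61A hairpin ratio was above them. On the log2 scale the ratio averaged 1.56 ± 0.21 with the TRMT61A hairpin and 0.74 ± 0.06 in control (SD, n = 3 each), a difference of 0.82 or 1.77-fold. A two-sided exact permutation test gave p = 0.1, the smallest that 3 against 3 libraries allow, and 0.133 after adjustment over the 4 ratios computed.

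Of the tropomyosins, TPM4 passed the test and TPM3 did not. TPM4 (ENSG00000167460) had 43.8, 39.0 and 52.1 CPM in TRMT61A hairpin libraries 1 to 3, against 14.8, 9.44 and 17.2 CPM in control libraries 1 to 3. All 3 TRMT61A hairpin libraries were above all 3 controls, at means of 45.0 ± 6.6 CPM and 13.8 ± 4.0 CPM (SD, n = 3 each). The difference, 1.70 ± 0.30 (SE) on the log2 scale, passed at an adjusted p of 0.0141 in edgeR. With 1 library left out it ran from 1.48 to 1.89, and the call was lost without TRMT61A hairpin library 2 (adjusted p = 0.0562 in edgeR), control library 1 (0.0503) or control library 2 (0.0761). The raw counts behind it were 666, 460 and 643 with the TRMT61A hairpin and 109, 77 and 152 in control, the fewest of any of the 10 genes.

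TPM3 (ENSG00000143549), another tropomyosin gene whose short isoforms are widespread outside muscle, had 149, 204 and 170 CPM with the TRMT61A hairpin and 123, 119 and 133 CPM in control. The groups did not overlap after TMM, and library 2 was the highest of the TRMT61A hairpin libraries. Scaled by total count only, they overlapped, at 127.3, 181 and 164.9 CPM against 113.5, 142.8 and 160.2 CPM in control. The log2 fold change of 0.48 ± 0.22 (SE) did not pass, at an adjusted p of 0.299 in edgeR. With library size alone it was 0.18 (adjusted p = 0.789 in edgeR). There were 3.39, 5.23 and 3.26 TPM3 counts per TPM4 count in TRMT61A hairpin libraries 1 to 3, against 8.34, 12.6 and 7.72 in control libraries 1 to 3. These ratios did not overlap and differed by -1.27 on the log2 scale (exact permutation p = 0.1, adjusted 0.133, n = 3 each). Without control library 2 the difference was -1.05, with an exact permutation p of 0.2. The gene table holds 9 entries named as TPM3 pseudogenes and 3 named as TPM4 pseudogenes, so their counts share the uncertainty of the actins.

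**Figure D2:**
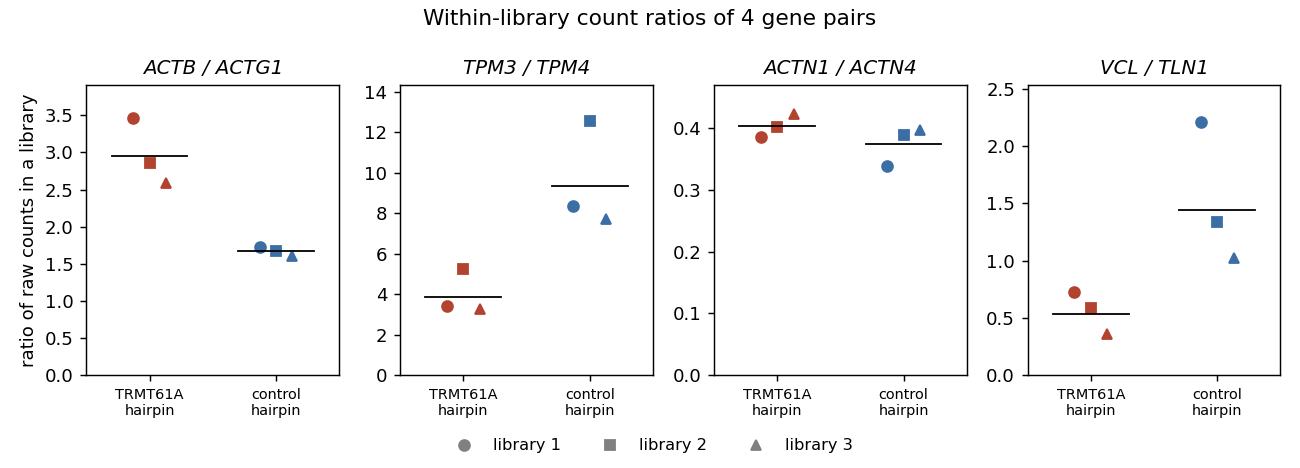
Ratio of raw counts of 2 genes within each library, 1 point per library, on linear axes from 0, with the group's geometric mean as a line (n = 3 per group). The groups are apart for ACTB to ACTG1, TPM3 to TPM4 and VCL to TLN1, and overlap for ACTN1 to ACTN4.

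The proteins that crosslink actin filaments showed no called difference. FLNA (ENSG00000196924), which encodes filamin A, had 309, 380 and 470 CPM in TRMT61A hairpin libraries 1 to 3, against 282, 437 and 638 CPM in control libraries 1 to 3. The control values spanned the whole range of the TRMT61A hairpin values. Its log2 fold change was -0.23 ± 0.30 (SE; adjusted p = 0.799 in edgeR), and it was -0.48 without control library 1 and 0.10 without control library 3.

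ACTN4 (ENSG00000130402) encodes a non-muscle alpha-actinin and had 254, 345 and 327 CPM with the TRMT61A hairpin, against 285, 356 and 389 CPM in control. ACTN1 (ENSG00000072110), its paralog, had 97.9, 138.6 and 138.5 CPM with the TRMT61A hairpin, against 96.6, 139 and 155 CPM in control. Library 1 was the lowest of its group for both genes in both groups. On the log2 scale the groups differed by -0.15 ± 0.23 for ACTN4 and by -0.06 ± 0.25 for ACTN1 (SE), neither of which passed (adjusted p = 0.834 and 0.955 in edgeR). The ratio of ACTN1 to ACTN4 counts, from 0.386 to 0.423 with the TRMT61A hairpin and from 0.339 to 0.397 in control, differed by 0.11 on the log2 scale (exact permutation p = 0.3, also after adjustment, n = 3 each). Neither value shows that the alpha-actinins were equal in both groups.

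Neither adhesion plaque gene passed the test. VCL (ENSG00000035403), which encodes vinculin, had 126, 124 and 93.4 CPM in TRMT61A hairpin libraries 1 to 3, against 139, 180 and 208 CPM in control libraries 1 to 3. TLN1 (ENSG00000137076), which encodes talin 1, had 173, 213 and 262 CPM with the TRMT61A hairpin and 62.7, 134 and 204 CPM in control. The VCL groups did not overlap, while the highest TLN1 control, library 3, was above the lowest TRMT61A hairpin value.

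On the log2 scale the differences were -0.61 ± 0.24 for VCL and 0.69 ± 0.35 for TLN1 (SE; adjusted p = 0.209 and 0.371 in edgeR). Without control library 1 they were -0.76 and 0.35, and TLN1 was at 1.13 without control library 3. There were 0.729, 0.585 and 0.356 VCL counts per TLN1 count with the TRMT61A hairpin, against 2.21, 1.34 and 1.02 in control. Every ratio with the TRMT61A hairpin was below every control ratio. The ratios differed by -1.44 on the log2 scale (exact permutation p = 0.1, adjusted 0.133, n = 3 each). Left-out libraries moved that to between -1.69 and -1.13, and without TRMT61A hairpin library 3 the exact permutation p was 0.2.

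VIM (ENSG00000026025), which encodes vimentin, had no call and the widest spread. It had 520, 453 and 520 CPM in TRMT61A hairpin libraries 1 to 3, against 56.4, 588 and 695 CPM in control libraries 1 to 3. Control library 1 held 416 counts of VIM, while control libraries 2 and 3 held 4795 and 6125, and after scaling their mean was 11.4 times its level. With all libraries the log2 fold change was 0.16 ± 0.59 (SE; adjusted p = 0.948 in edgeR). Without control library 1 it was -0.37 (adjusted p = 0.503 in edgeR). With all libraries scaled by total count only it was -0.24, so its direction was not settled. VIM had counts in every library, which alone does not establish the identity of the cells.

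In TMM-scaled CPM, control library 1 was the lowest control for 6 of the 10 genes, namely VIM, FLNA, ACTN1, ACTN4, VCL and TLN1. It was the highest for both actins, but this depended on TMM, whose factor was 0.9235 there and 1.208 and 1.206 in control libraries 2 and 3. Scaled by total count only, it was the lowest control for ACTB (1364 against 1559 and 1552 CPM) and ACTG1 (787.5 against 934.1 and 971.5 CPM). Among the 665 features that averaged 100 TMM-scaled CPM or more, control library 1 was the lowest control for 30.8%. The mean of control libraries 2 and 3 was 2.70 times the level of control library 1 for TLN1, 1.91 times for FLNA, 1.52 times for ACTN1, 1.40 times for VCL and 1.31 times for ACTN4. It was 0.872 times for ACTB and 0.926 times for ACTG1. The coefficient of variation of VIM over the control libraries, 76.6%, ranked 3 among those 665 features, whose median was 18.5%. With the TRMT61A hairpin it was 7.82%, against a median of 15.8%. Of the 665 features, 2 were at least 5-fold lower in control library 1 than in both other controls, and VIM was 1 of them.

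**Figure D3:**
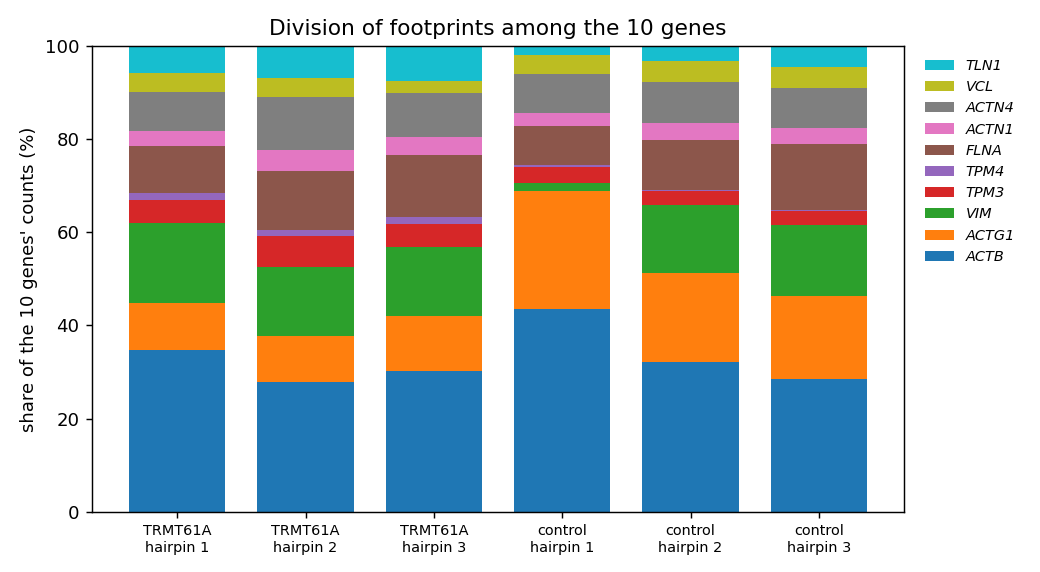
Share of the summed raw counts of the 10 genes that each gene took, in percent, 1 bar per library. ACTG1 takes 9.78 to 11.7% in the TRMT61A hairpin libraries and 17.8 to 25.2% in control libraries, and VIM takes 1.66% in control library 1 and 14.6 to 17.2% in the other 5 libraries.

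The sum over the 10 genes was 3029, 3044 and 3508 CPM in TRMT61A hairpin libraries 1 to 3, against 3396, 4032 and 4536 CPM in control libraries 1 to 3, and these groups overlapped. Shares within that sum do not depend on scaling between libraries, though they are not per length. ACTG1 took 10.5% ± 1.1 of it with the TRMT61A hairpin and 20.7% ± 3.9 in control (SD, n = 3 each). TPM4 took 1.40% ± 0.11 with the TRMT61A hairpin and 0.350% ± 0.104 in control, without overlap between the groups. TLN1 took 6.72% ± 0.91 with the TRMT61A hairpin and 3.22% ± 1.33 in control. ACTB took 31.0% ± 3.5 and VIM 15.6% ± 1.3 with the TRMT61A hairpin, against 34.7% ± 7.9 and 10.5% ± 7.7 in control (SD, n = 3 each). Because shares sum to a whole, a low VIM in control library 1 raises all other shares of that library.

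**Figure D4:**
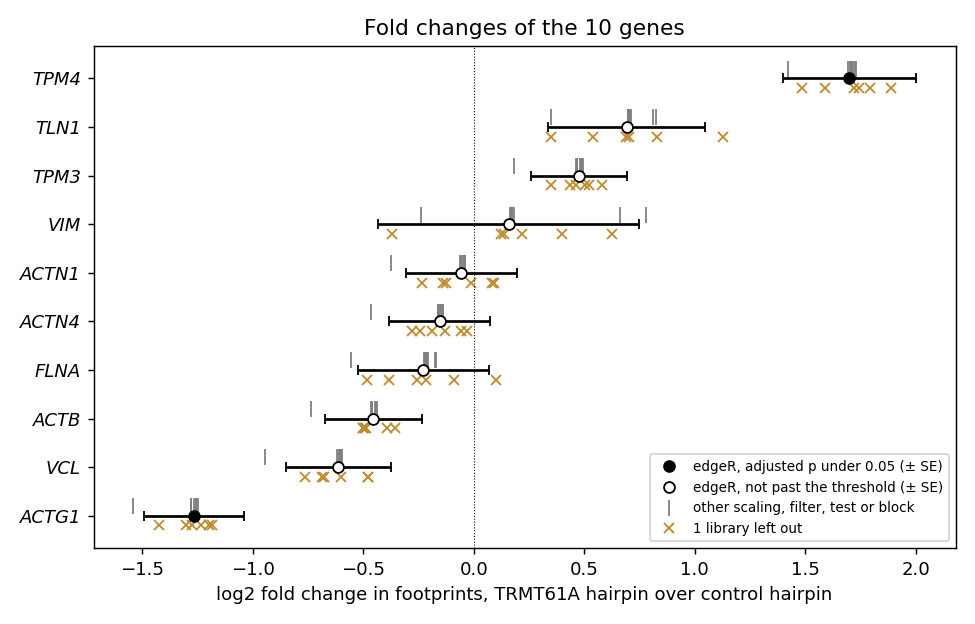
Log2 fold change in footprints of each gene, TRMT61A hairpin over control, as circles with the SE (filled where the adjusted p in edgeR was under 0.05), with values under other settings as grey ticks and with 1 library left out as crosses. ACTG1 and TPM4 stay at the ends of the range, and values of VIM, FLNA and ACTN1 fall on both sides of 0.

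Dropping TMM lowered all 10 values. When libraries were scaled by total count only, the median of all features was -0.30 on the log2 scale. ACTG1 was then at -1.54 and TPM4 at 1.42, or -1.24 and 1.72 relative to that median, and both were called (adjusted p = 0.0129 and 0.0410 in edgeR). VIM was at -0.24 there, which is 0.06 above the median. VCL, at -0.94, was the nearest of the others to the threshold in that fit, with an adjusted p of 0.0999 in edgeR.

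The mean pattern of the 10 genes, each centred on its own mean log2 CPM, was lowest in control library 1 (-0.50) and highest in control library 3 (0.32). The feature whose log2 CPM followed it most closely over the 6 libraries, among 5898 that averaged 10 CPM or more, was ENSG00000178715.8_6 (Pearson's r = 0.995), followed by ENSG00000005007.13_4 (0.989). What these IDs encode is not stated here. The 6 points share their libraries and scaling, and no test was made of this likeness. In control library 1 the low value of the pattern includes VIM at 56.4 CPM, while both actins were at their highest there after TMM. Scaled by total count only, both actins were lower in control library 1 than in the other controls.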

How the data were processed

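The authors deposited raw read counts per Ensembl gene ID, with no normalization that the values show. Per the labels' protocols, lysates were treated with RNase I, monosomes were isolated on a sucrose gradient and rRNA-depleted short footprints were amplified. Per the submitters' processing notes, fastp, Bowtie 1.3.1 and hg38 were used. The counting tool, annotation and handling of reads matching several genes are not stated there.

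Control columns are headed as vector columns and were matched through assay and replicate number. The 6 other columns, named for RNA, match no sample described here and were not used, so translation efficiency was not computed. The gene table has no Ensembl IDs (0 matched). Symbols of the 10 genes come with their definition. TRMT61A, cell type markers and wider cytoskeleton and adhesion lists were not analysed here.

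Counts were tested in edgeR 4.0.16 (R 4.3.3; filterByExpr, TMM, quasi-likelihood F-test, two-sided), fitted on 11653 features and adjusted over all of them. The SE is the log2 fold change divided by the square root of F. Alternatives were DESeq2 1.42.0, limma 3.58.1 with voom, other scaling and filters, a replicate block and fits without 1 library. The fit was tested on simulated data. Ratios within a library were tested by exact permutation. By rule, all 10 genes were named, with at most 2 IDs of most similar pattern (log2 of CPM plus 0.5). The genes, pairs and lists were chosen with earlier results of these data known.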

Additional observations from a re-analysis of the deposited data

How the results depend on the processing

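ACTG1 and TPM4, and no other of the 10 genes, were called under all 9 alternatives that kept every library. With 1 library left out, 0 to 2 of the 10 were called, and such fits have fewer samples. ACTG1 was called in 2 of these 6 fits and TPM4 in 3, and neither changed direction in any alternative, which groups that do not overlap fixed in advance. Over its alternatives the adjusted p ran from 2.57e-08 to 0.0794 for ACTG1 and from 3.28e-05 to 0.0761 for TPM4. VIM was -0.24 with library size alone, 0.78 in limma voom and 0.66 with the replicate block, against 0.16 in the report. With libraries left out, VIM ran from -0.37 to 0.62, FLNA from -0.48 to 0.10 and ACTN1 from -0.24 to 0.0923 (log2 fold change), so their directions were not settled. ACTN4 ran from -0.28 to -0.03 in the same fits. The count over all features was 364. It came to 735 with no count filter and 602 with at least 10 CPM in 3 libraries. DESeq2 gave 834 (411 higher, 423 lower), and fits with a library left out gave 47 to 171. The last have fewer samples, and the cause of these differences was not tested. Library size alone gave 63 higher and 334 lower, against 173 and 191 with TMM. The replicate block gave 208 calls over all features, ACTG1 and TPM4 among them (adjusted p = 0.0349 and 0.0236 in edgeR). Deviations of same-numbered libraries correlated at -0.0039, -0.017 and 0.050. No shared deviation by number was seen in this measure, which includes features with low counts and cannot exclude a pairing. The sign-flip test of the ratios by number cannot go below 0.25. Directions of the 4 ratios were the same in all 6 fits without a library. Groups that do not overlap fixed this in advance for every ratio but ACTN1 to ACTN4. The alternatives for wider gene lists were not run for want of symbols. TPM4 had low counts in control, and how far they limit the precision of its fold was not tested.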
